A study of Mus musculus with 6 samples.

Results

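The lungs of Hgf iPCKO mice, in which the gene for hepatocyte growth factor (HGF) was targeted with a Pdgfrb-driven inducible Cre, were compared with lungs of Hgf control mice over all cells of both single-cell libraries. A barcode was kept as a cell when it held at least 700 unique molecular identifiers (UMIs, 1 for each captured transcript) and at most 25% of them from the mitochondrial genome. This left 14095 control and 15818 iPCKO cells, together 29913 of the 85105 cells that passed the same filter in the 6 libraries of the series. Each cell was then assigned by marker genes to the epithelial, endothelial, mesenchymal or immune lineage, and UMIs were summed per library and lineage.

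Control mice were Hgf lox/lox, and the study names no CreERT2 transgene for them. Hgf iPCKO mice carried the same lox-flanked alleles and the Pdgfrb(BAC)-CreERT2 transgene. Mice of both genotypes had received 3 injections of 50 µg tamoxifen between P1 and P3, and their lungs were collected at P21. Cells of 2 mice per genotype were pooled, depleted of CD45+ cells and erythrocytes with magnetic beads, and loaded as 1 library of about 40000 cells on the BD Rhapsody platform, which captures polyadenylated transcripts at their ends and labels each with a cell barcode and a UMI. Bdnf control and Bdnf iPCKO lungs at P21 and Nodal control and Nodal iPCKO cerebral cortex at P12 were prepared in the same series with the same driver, and are given here only beside the Hgf pair. The strain background of these mice, the sex of each mouse and the hour of collection are not given in the sources used here. The driver acts mainly in mural cells, with little recombination in cells of low PDGFRB level such as fibroblasts, as the study describes it. Since each genotype is 1 library, no test between genotypes was possible, and no p-value is given. Presence of the transgene, the deletion, the pooled mice and the library cannot be told apart. Intervals are exact 95% intervals and cover counting error only.

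HGF is a secreted factor made by mesenchymal and endothelial cells, and its receptor MET is found mainly on epithelium, where binding activates the RAS and ERK cascade. In the alveolus, flat alveolar type 1 (AT1) cells exchange gas and alveolar type 2 (AT2) cells secrete surfactant, while general (gCap) and aerocyte (aCap) capillary endothelium, pericytes, fibroblasts and myofibroblasts make up the surrounding wall. Nearly all of these cells carry a circadian clock, in which the activators BMAL1 (encoded by Arntl), CLOCK and NPAS2 drive Per, Cry, Nr1d and the PAR-bZIP genes Dbp, Tef and Hlf, whose products feed back on the activators.

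Short stretches of promoters are printed here because the clock list had the largest median ratio in epithelial and endothelial cells and the interferon-stimulated list the lowest median in the same cells in the results that follow. RefSeq sequences of GRCm38.p6 cover 250 bases upstream of each transcription start and were found for 16 of 19 clock genes and 18 of 26 interferon-stimulated genes. Both strands were searched for the E-box CACGTG, bound by CLOCK and BMAL1, which lay in 6.02% of all 32851 promoters and in 5 of the 16 clock genes, Bhlhe41, Ciart, Cry1, Per1 and Tef. The D-box TTANGTAA, bound by DBP, TEF and HLF, lay in 2.06% of promoters and in Per3 alone among the clock genes. The interferon-stimulated response element, written as GAAANNGAAA, lay in 2.98% of promoters and in 12 of the 18 interferon-stimulated genes. Among the 15 named genes higher in every lineage, 10 had a promoter, of which Fkbp5 alone held an E-box. A match describes the letters and does not show that a factor was bound.

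In each line the gene's own strand is written 5′ to 3′, and capitals mark the motif in either orientation. The E-box genes are Per1 (chr11:69098763-69098808, plus strand), Ciart (chr3:95882247-95882364, minus strand), Bhlhe41 (chr6:145865548-145865593, minus strand) and Tef (chr15:81802526-81802571, plus strand), and the D-box gene is Per3 (chr4:151044796-151044890, minus strand). The interferon-stimulated genes are Isg15 (chr4:156200855-156200916, minus strand), whose 3 matches overlap, Gbp2 (chr3:142620584-142620633, plus strand) and Ifit1 (chr19:34640765-34640833, plus strand), the last 2 with the motif on the opposite strand. All positions are those of GRCm38.p6.
Per1: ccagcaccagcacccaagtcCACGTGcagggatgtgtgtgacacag
Ciart: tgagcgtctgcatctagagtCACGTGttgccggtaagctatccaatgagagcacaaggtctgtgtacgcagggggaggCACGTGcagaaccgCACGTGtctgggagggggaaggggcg
Bhlhe41: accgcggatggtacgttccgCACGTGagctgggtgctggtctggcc
Tef: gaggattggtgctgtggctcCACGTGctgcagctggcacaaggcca
Per3: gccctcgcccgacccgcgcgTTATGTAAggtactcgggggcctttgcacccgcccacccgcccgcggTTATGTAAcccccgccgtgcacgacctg
Isg15: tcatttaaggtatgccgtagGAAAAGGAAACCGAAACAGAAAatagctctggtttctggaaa
Gbp2: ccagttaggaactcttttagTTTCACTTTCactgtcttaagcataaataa
Ifit1: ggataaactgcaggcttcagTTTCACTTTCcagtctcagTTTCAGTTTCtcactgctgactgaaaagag

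The Hgf control matrix held 73446420 and the iPCKO matrix 69403166 UMIs, in a series whose libraries ranged from 33889545 to 186701379. Control cells were deeper, with a median of 3988 UMIs and 1869 genes per cell against 2860 and 1518 in the iPCKO library, while the median mitochondrial shares were 9.44 and 8.88%. The Y-linked Ddx3y had 108.6 to 211.5 CPM (the UMIs of a gene scaled to the same total in every lineage and library) in every lineage of both libraries and Xist at most 0.205 CPM. The 243 cell barcodes found in both libraries compare with 244.3 for independent draws. The marker lists of each lineage summed to 11553.6 and 9489 CPM in epithelial, 23738.9 and 20303.8 CPM in endothelial, 33229.6 and 18788.4 CPM in mesenchymal and 7054 and 4404 CPM in immune cells, control first. The markers of the other lineages reached at most 624.4 CPM in any of these.

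Hgf, listed as ENSMUSG00000028864.8, lies on chromosome 5 from 16758041 to 16828178 of GRCm39, on the plus strand. Its transcripts were lower in the Hgf iPCKO library in the 3 lineages that expressed it, and among the classes the largest difference in CPM was in pericytes. In control lungs Hgf was not restricted to pericytes. It had 23 CPM in mesenchymal, 21.1 CPM in endothelial, 150.5 CPM in immune and 0.581 CPM in epithelial cells, against 7.42, 4.28, 35.3 and 0.249 CPM in iPCKO lungs. The log2 ratio of iPCKO over control was -1.63 (-2.46 to -0.89) in mesenchymal, -2.30 (-2.67 to -1.94) in endothelial and -2.09 (-2.67 to -1.54) in immune cells. In the same 99 immune cells of each library the basophil genes Mcpt8 and Prss34 were lower as well (-2.71 and -3.30), and their part in the immune Hgf value was not tested. The deleted exons are not named in the sources used here, and whether the captured ends of the transcripts cover them was not tested, so these levels check the labels only in part.

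Within the mesenchyme, Hgf was 186.6 CPM in control pericytes and 25.8 CPM in iPCKO pericytes, a log2 ratio of -2.85 (-4.22 to -1.64) from 23 and 8 UMIs. Matrix fibroblasts had 26 UMIs in the control (48.7 CPM) and 1 in the iPCKO library (4.97 CPM), a log2 ratio of -3.29 (-8.65 to -0.69). Myofibroblasts held no Hgf UMI in either library. Among endothelial cells, gCap cells carried the transcript in both libraries, at 43.7 and 7.51 CPM, and the log2 ratio was -2.54 (-3.31 to -1.84). Arterial cells had 25.8 and 3.39 CPM, and aCap cells 6.15 and 2.16 CPM.

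A Hgf UMI was found in 5.09% of endothelial, 7.53% of mesenchymal, 38.4% of immune and 0.214% of epithelial cells of the control, the last taken as background, at medians of 2238, 2684, 4298 and 4851 UMIs per cell. In the iPCKO library the shares were 1.08, 1.15, 19.2 and 0.118%, at medians of 2007, 1680, 8194 and 3707 UMIs. When every cell was thinned to 700 UMIs, they were 1.93 and 0.268% in endothelial, 1.74 and 0.492% in mesenchymal, and 25.3 and 6.06% in immune cells, and the epithelial background at that depth was 5 of 7016 control cells (0.0713%) and 0 of 5952 iPCKO cells, so that up to 0.0620% could have shown a UMI, which sets no limit on expression. In the Bdnf pair Hgf was also lower in the iPCKO library, from 209.7 to 138.1 CPM in pericytes (log2 ratio -0.60, -1.16 to -0.07) and from 29.1 to 16.2 CPM in gCap cells (-0.84, -1.32 to -0.38). Both drops were smaller than those of the Hgf pair.

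Met (ENSMUSG00000009376.16, chromosome 6 from 17463749 to 17573979 of GRCm39) was lower in the epithelium of Hgf iPCKO lungs and higher in their mesenchyme. Epithelial cells had 145.6 and 77.5 CPM, a log2 ratio of -0.91 (-0.98 to -0.84), and 46.2 and 27.3% of them carried a Met UMI, 9.78 and 5.71% after thinning to 700 UMIs. In AT2 cells the values were 189 and 127.6 CPM (-0.57, -0.65 to -0.49), in club cells 96.5 and 55.3 CPM (-0.80, -1.10 to -0.51) and in AT1 cells 9.93 and 15.4 CPM (0.63, -0.03 to 1.29). The lower epithelial value thus includes a smaller share of AT2 cells, in which Met was highest. In mesenchymal cells Met had 19.2 and 37.9 CPM (0.98, 0.52 to 1.45), whereas within myofibroblasts, the class with the most Met, it had 78.3 and 86.8 CPM (0.15, -0.56 to 0.91). The AT2 ratio of the Bdnf pair was -0.33 (-0.37 to -0.29).

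Genes listed under HGF and MET, such as those of HGF activation and MET signalling, did not move together. Over the list of these genes the median log2 ratio was -0.06 in 15 measured epithelial, 0.03 in 13 endothelial, 0.25 in 14 mesenchymal and -0.26 in 9 immune members, and at most 3 members of any lineage passed 2-fold in 1 direction. A gene counted as measured when both libraries together held at least 50 of its UMIs and their mean level was at least 10 CPM in that lineage. Plau, the urokinase that can activate HGF, was lower in endothelial cells, with 65.2 and 13.7 CPM (-2.25, -2.46 to -2.05). Hpn, which encodes the HGF-activating protease hepsin, had 22.2 and 38.1 CPM in epithelium (0.78, 0.65 to 0.91), and Spint1, an inhibitor of such proteases, 67.5 and 103.8 CPM (0.62, 0.54 to 0.70). The MET docking protein gene Gab1 was higher in mesenchyme (43.3 and 115 CPM, 1.41), and the MET co-receptor gene Cd44 was lower in epithelium (135.4 and 66.6 CPM, -1.02) and higher in mesenchyme (100.6 and 219.7 CPM, 1.13). Gab1 and Cd44 were picked from the list after their values were seen.

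The Hgf iPCKO library held fewer epithelial and more endothelial cells than its control. The epithelial share was 49.8% (49.0 to 50.6%) of control and 37.6% (36.9 to 38.4%) of iPCKO cells, the endothelial share 36.8% (36.0 to 37.6%) and 44.9% (44.1 to 45.7%). Mesenchymal cells made up 6.51% (6.10 to 6.93%) and 7.71% (7.30 to 8.14%). The log2 ratios of these shares were -0.40 (-0.45 to -0.35), 0.29 (0.23 to 0.34) and 0.25 (0.12 to 0.37). Immune cells, which the bead depletion removes, were 99 in each library, 0.702 and 0.626%, and a difference was not detectable (-0.17, -0.58 to 0.25). Cells that held markers of more than 1 lineage were 5.78 and 7.73%, and 0.404 and 1.39% passed no gate. The mesenchymal direction depended on depth, since its ratio was -0.54 among cells with at least 2000 UMIs. For the Bdnf pair the epithelial ratio was -0.11 (-0.15 to -0.07), and the endothelial and mesenchymal ratios of -0.02 and 0.03 had intervals that include 0.

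Within the epithelium the AT2 share was lower in Hgf iPCKO lungs and the AT1, club and ciliated shares were higher. Class names stand for cells that passed a marker gate, that is AT2-like, AT1-like and so on. Epithelial cells assigned to no single class were 579 (8.25%) in the control and 1001 (16.8%) in the iPCKO library. Which class these belong to was not tested, so a lower AT2 share does not by itself mean fewer AT2 cells. AT2 cells, named from Slc34a2, Cxcl15, Hc, Napsa, Chil1 and Il33, were 76.5% of control and 60.4% of iPCKO epithelial cells (log2 ratio -0.34, -0.40 to -0.28). AT1 cells were 12.4 and 16.4% (0.40, 0.27 to 0.54), club cells of the airway 2.64 and 5.19% (0.98, 0.71 to 1.25), and ciliated cells 0.257 and 1.23% (2.26, 1.5 to 3.09) from 18 and 73 cells. The AT2, AT1 and club ratios of the Bdnf pair were -0.28, 0.45 and 0.86, the same direction for each, and its ciliated ratio of 0.81 had an interval that includes 0.

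The mesenchyme was the lineage whose makeup differed most. Adventitial fibroblasts, which surround larger vessels and airways, were 26.1% of control and 3.85% of iPCKO mesenchymal cells (239 and 47 cells, log2 ratio -2.76, -3.24 to -2.30), and matrix fibroblasts 25.2 and 11.2% (-1.17, -1.48 to -0.85). Myofibroblasts were 13.4 and 38.3% (1.51, 1.22 to 1.81) and pericytes 7.31 and 16.3% (67 and 199 cells, 1.16, 0.75 to 1.58). The Bdnf pair had ratios of -0.29 for adventitial fibroblasts, -0.92 for matrix fibroblasts, 0.11 for myofibroblasts and -0.34 for pericytes. The Hgf control stood lower than the other 3 lung libraries in myofibroblasts, which were 36.0% in the Bdnf control, 38.7% in the Bdnf iPCKO and 38.3% in the Hgf iPCKO library. Pdgfrb, a marker of the mesenchymal gate, was itself at 152.4 and 947.5 CPM in mesenchymal and at 1444 and 4307 CPM in pericyte cells (2.64 and 1.58). Pdgfrb was likewise higher in endothelial cells (8.20 and 30.3 CPM, 1.885) and in barcodes without a cell (2.66), and at least 2-fold in each of 9 classes compared. It was also higher in the Bdnf pair, with a mesenchymal ratio of 1.28 and 621.3 and 2130 CPM in pericytes (1.78). The part of the Pdgfrb(BAC)-CreERT2 transgene in these values was not tested. Without Pdgfrb and the markers on the chromosome 5 stretch described last, a gate added after the data were seen, the log2 ratio of the mesenchymal share was 0.20. A sum over a lineage does not by itself separate fewer cells of a class from less RNA per cell, which bears on every mesenchymal sum that follows. With classes weighted as in the control, added after the data were seen, 1400 mesenchymal genes passed 2-fold in either direction, against 1429 in the plain sums. Adventitial fibroblasts, with 47 iPCKO cells, then held 51.4% of the mesenchymal weight, so counting error bears on this number. Whether the same genes passed was not tested. In epithelium the same weighting gave 467 genes against 580.

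Among endothelial cells the makeup was closer between the libraries. The share of gCap cells was 22.3% in the control and 19.1% in the iPCKO library (-0.23, -0.34 to -0.11), that of aCap cells 19.6 and 20.7% (0.08, -0.04 to 0.20) and that of arterial cells 4.20 and 4.31%. Lymphatic cells were fewer, 3.16 and 1.89% (-0.74, -1.08 to -0.41), and venous cells more frequent, 4.72 and 5.66% (0.26, 0.03 to 0.50). The lymphatic ratio of the Bdnf pair was -0.49 and its gCap ratio -0.23. The remaining endothelial cells did not hold enough markers of 1 class.

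**Figure D1:**
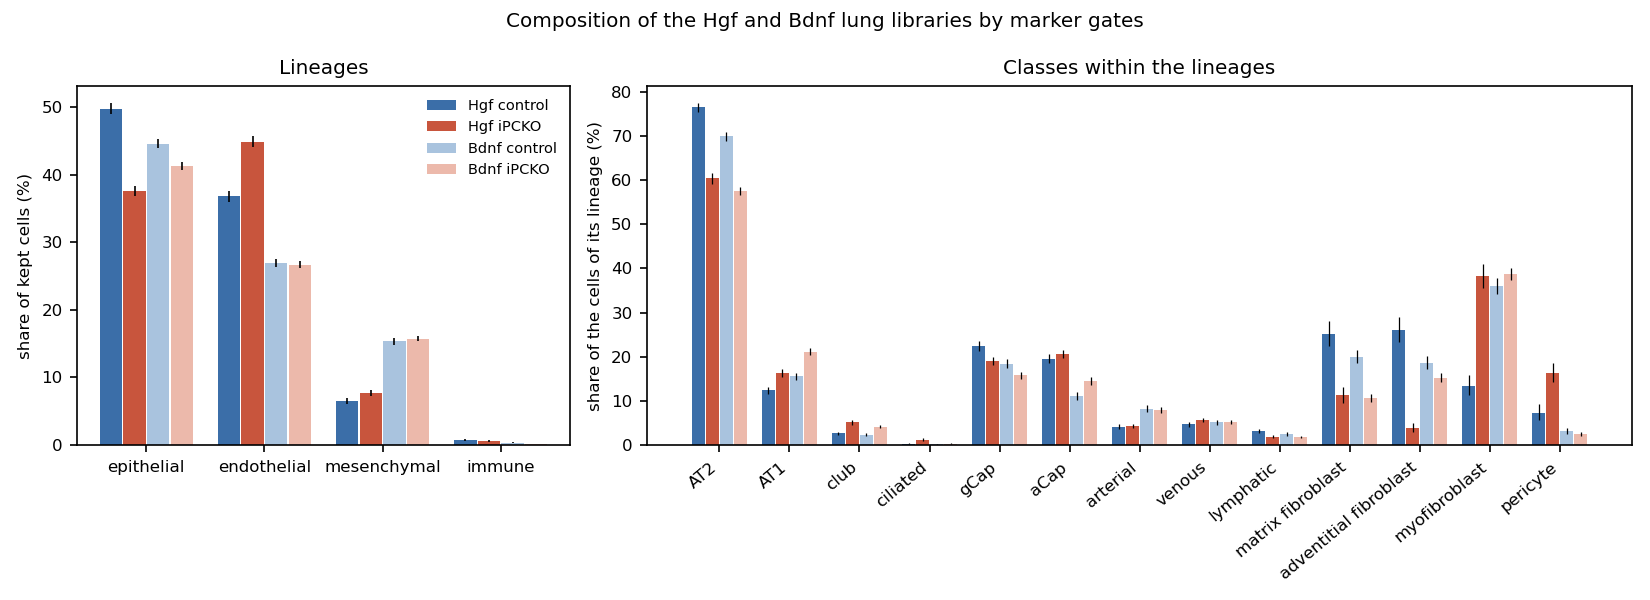
Shares of kept cells by lineage (left panel, y axis in percent of kept cells) and of classes within their lineage (right panel, y axis in percent of the lineage's cells) in the Hgf and Bdnf control and iPCKO lung libraries; bars show 1 library each and lines exact 95% intervals of counting error. The Hgf control bar is the lowest of the 4 for myofibroblasts at 13.4%, and the Hgf iPCKO bar the lowest for adventitial fibroblasts at 3.85%.

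Summed per lineage, 8920 to 9442 genes were measured in the 3 large lineages and 5615 in immune cells. At least 2-fold higher in the iPCKO library were 320 epithelial (3.59%), 255 endothelial (2.72%), 782 mesenchymal (8.28%) and 276 immune genes (4.92%), and at least 2-fold lower were 260 (2.91%), 401 (4.28%), 647 (6.85%) and 456 (8.12%). Mesenchymal and immune cells, the lineages with the fewest UMIs, thus had the largest shares of such genes. Shares in the Bdnf pair were 0.399 and 0.133% in epithelial, 0.579 and 0.525% in endothelial, and 0.630 and 0.441% in mesenchymal cells. The 2 control libraries differed from each other in more genes than the Bdnf pair did, with 1.92 and 1.85% of epithelial genes at least 2-fold apart in either direction. The 2 controls differ in their lox-flanked gene, and no transgene is named for either.

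Of 4693 genes measured in all 4 lineages, 7 were at least 2-fold higher in every lineage (0.149%) and 7 at least 2-fold lower in every lineage (0.149%). At 1.5-fold the counts were 37 (0.788%) and 29 (0.618%), and 1469 genes (31.3%) had the same sign in all 4 lineages. The 7 higher genes were Cirbp, Dynlt2a2, Snhg6, Fkbp5, Mt1, Rpl9 and 1500011B03Rik, and among the 7 lower genes were H2-Aa, Inpp4b, Lyz2, Scd1, Cd74 and Rnf213. Between the 2 controls, Hgf over Bdnf, 23 of 3845 genes (0.598%) were at least 2-fold higher and 16 (0.416%) lower in every lineage. A share of genes that differed 2-fold in every lineage was therefore larger between these 2 controls than within the Hgf pair.

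Cold-inducible RNA-binding protein genes were among the higher ones. Cirbp had 43.2 and 142 CPM in epithelial, 28.1 and 117 CPM in endothelial, 31.3 and 111 CPM in mesenchymal and 15.5 and 71.5 CPM in immune cells, log2 ratios of 1.72, 2.05, 1.83 and 2.20. Across 12 classes the Cirbp ratio ran from 1.16 in matrix fibroblasts to 2.50 in pericytes. Its relative Rbm3 had 78.1 and 272.7 CPM in epithelial, 105.2 and 196.8 CPM in endothelial, 82.8 and 192.1 CPM in mesenchymal and 290.1 and 920.1 CPM in immune cells. The Bdnf pair showed the same direction for both, with Cirbp ratios of 0.72, 0.85 and 0.83 and Rbm3 ratios of 0.69, 0.50 and 0.50 in the 3 large lineages.

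Fkbp5, Mt1 and Mt2, which glucocorticoids are known to induce, were higher too, although the glucocorticoid list given further on was not higher in immune cells. Fkbp5, which encodes a co-chaperone of the glucocorticoid receptor, had 3.48 and 60.3 CPM in epithelial, 14.3 and 178.8 CPM in endothelial, 31.6 and 176 CPM in mesenchymal and 46.5 and 94.7 CPM in immune cells. Its log2 ratios were 4.12 (3.86 to 4.38), 3.64 (3.44 to 3.85), 2.48 (2.18 to 2.79) and 1.02 (0.43 to 1.66), so every lineage was higher and the immune lineage least. Within classes the Fkbp5 ratio was 5.64 in aCap, 4.88 in AT1, 4.56 in AT2, 2.46 in pericyte and 1.32 in myofibroblast cells. The metallothionein genes Mt1 and Mt2, which encode metal-binding proteins and may share reads, had Mt1 ratios of 2.47, 2.74, 1.79 and 1.02 and Mt2 ratios of 2.81, 3.43, 2.65 and 0.99. In the Bdnf pair the Fkbp5 ratio was 1.04 in epithelial, 0.70 in endothelial and -0.21 in mesenchymal cells.

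The remaining higher genes were of mixed function. Snhg6 and Snhg3, host genes of small nucleolar RNAs, had ratios of 1.04, 1.28, 1.88 and 1.20 and of 1.28, 1.06, 0.96 and 2.08, and Trp53inp1, a p53 target, 0.96, 1.87, 2.62 and 0.92. For Dynlt2a2, a dynein light chain gene, the ratios were 2.48, 1.84, 1.26 and 1.63, and for Mdn1, a factor of ribosome assembly, 0.94, 0.91, 1.49 and 1.40. Rpl9, a ribosomal protein gene with many near-identical pseudogenes whose reads the counting could split, had 864.7 and 1841 CPM in epithelial cells and ratios of 1.09, 1.13, 1.02 and 1.07, and Lias, the lipoic acid synthase gene beside it on chromosome 5, 1.03, 0.98, 1.09 and 1.33.

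The genes lower in every lineage were of mixed function, with interferon, antigen presentation and AT2 genes among them. Irf9, a transcription factor gene of interferon signalling, had 33.7 and 19.0 CPM in epithelial, 108.3 and 41.7 CPM in endothelial, 34.5 and 18.6 CPM in mesenchymal and 57.4 and 18.6 CPM in immune cells, log2 ratios of -0.82, -1.38, -0.90 and -1.63, and Rnf213, an interferon-inducible ubiquitin ligase gene, had ratios of -1.06, -1.56, -1.56 and -1.16. In the endothelium of the Bdnf pair the Irf9 ratio was -0.64 and the Rnf213 ratio -0.72.

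H2-Aa, an MHC class II chain gene that AT2 cells express, had 513.3 and 83.0 CPM in epithelial, 46.1 and 6.88 CPM in endothelial, 24.1 and 2.89 CPM in mesenchymal and 304 and 81.7 CPM in immune cells. Its ratios were -2.63, -2.75, -3.06 and -1.90, and those of Cd74, the class II invariant chain gene, -2.48, -2.29, -3.08 and -1.11. Lyz2, the lysozyme gene of AT2 and myeloid cells, had 24647.6 and 8261 CPM in epithelial, 793.4 and 248.5 CPM in endothelial, 945.2 and 172.1 CPM in mesenchymal and 2810 and 777.2 CPM in immune cells. Scd1, a fatty acid desaturase gene needed for surfactant lipids, had 11177.1 and 3549 CPM in epithelial, 292.6 and 101 CPM in endothelial, 442.7 and 108.8 CPM in mesenchymal and 66.7 and 11.1 CPM in immune cells. Within AT2 cells the Scd1 level was 15495.2 and 6958 CPM, a ratio of -1.16 (-1.17 to -1.15), so it was lower there also.

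Transcripts outside cells moved in the same direction as these shared values. In the control, endothelial cells held 3.22% of the epithelial level of Lyz2 and 2.62% of that of Scd1, and mesenchymal cells 3.84 and 3.96%, while the AT2 surfactant transcripts Sftpa1, Sftpb, Sftpc and Sftpd stood at 3.04 to 3.22% in endothelial cells. In the iPCKO library the endothelial values were 3.01% for Lyz2, 2.85% for Scd1 and 3.02 to 3.27% for the surfactant transcripts, and the mesenchymal values were lower than in the control, at 2.08% for Lyz2, 3.07% for Scd1 and 2.03% for Sftpc, which had 3.82% in the control. H2-Aa stood at 8.99 and 8.28% and Inpp4b at 19.9 and 35.4% in endothelial cells of control and iPCKO lungs. For Fkbp5 the endothelial level was 410.9 and 296.5% of the epithelial one and for Cirbp 65.1 and 82.2%. Barcodes without a cell, those with 10 to 100 UMIs, were higher for 37 of the 37 genes at least 1.5-fold higher in every lineage, 11 of them 2-fold, and lower for 29 of the 29 genes lower in every lineage, 9 of them 2-fold. Among 11100 protein-coding genes on chromosomes other than 5, 5908 (53.2%) were higher in those barcodes and 504 were at least 2-fold higher. Genes chosen as higher or lower in every lineage would largely share that sign in RNA shed by the same cells. These counts therefore do not separate free RNA from RNA of the cells, and the part of free RNA in each ratio was not tested.

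Inpp4b, which encodes a phosphoinositide phosphatase, was the other strongly lower gene, with 224.8 and 40.7 CPM in epithelial, 44.7 and 14.4 CPM in endothelial, 43.0 and 13.2 CPM in mesenchymal and 147.4 and 28.8 CPM in immune cells. Ptgs2, the cyclooxygenase 2 gene, had ratios of -0.91, -1.44, -1.33 and -3.09, and the ERK phosphatase gene Dusp6, a feedback target of the cascade below MET, -0.88, -1.03, -1.08 and -1.13. Over all measured ERK feedback genes the median was -0.32 in epithelial, -0.34 in endothelial, 0.44 in mesenchymal and -1.14 in immune cells, and 0 of 11 epithelial members passed 2-fold. The lysosomal enzyme genes Hexa and Ppt1 (ratios -1.21, -1.35, -1.39, -0.99 and -0.86, -1.0, -1.20, -0.96), Ddx17 and Dpp4 completed the named genes of known function. Dusp6 and Ptgs2 were not lower in epithelium of the Bdnf pair, where their ratios were 0.51 and 0.74.

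**Figure D2:**
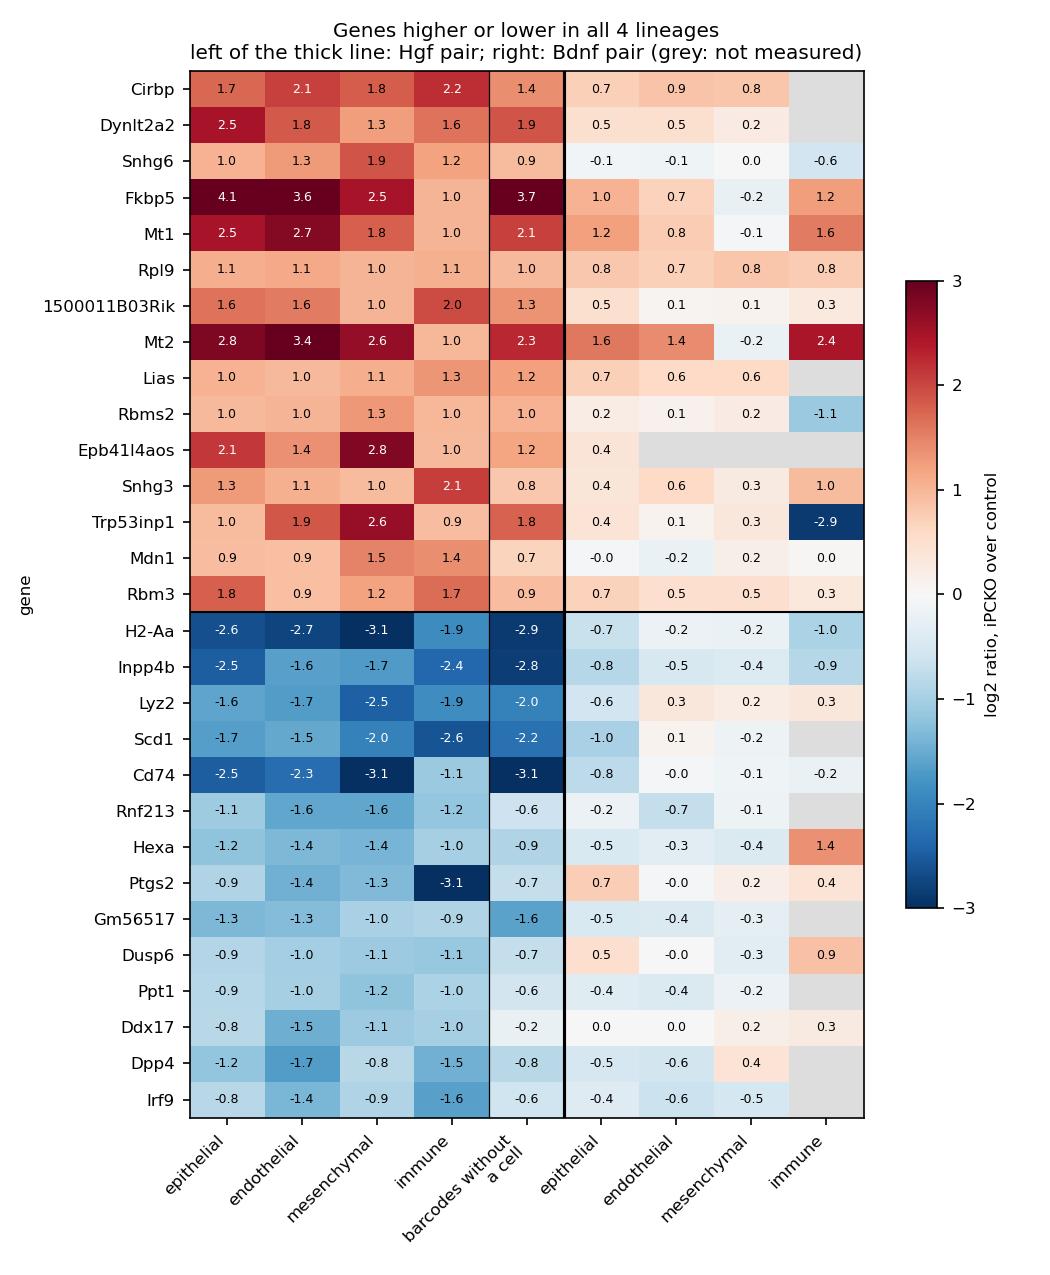
Log2 ratios of iPCKO over control for named genes higher (upper rows) and lower (lower rows) in all 4 lineages, by lineage and in barcodes without a cell for the Hgf pair (left of the thick line) and by lineage for the Bdnf pair (right); the colour scale is the log2 ratio and grey marks genes not measured. Values of Fkbp5 run from 1.02 in immune to 4.12 in epithelial cells, and barcodes without a cell share the sign of each row.

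More genes counted as shared when immune cells, only 99 in each library, were left out. Leaving out a required lineage cannot lower such a count, and no other lineage was left out. Without immune cells, an alternative added after the data were seen, 40 of 7385 genes (0.542%) were at least 2-fold higher and 30 (0.406%) lower in the other 3 lineages. The 40 included 8 clock genes (Per1, Per2, Per3, Cry2, Dbp, Nr1d1, Nr1d2 and Tef) and 6 glucocorticoid response genes (Glul, Txnip, Mt1, Mt2, Zbtb16 and Fkbp5). Among the 30 were the lipid synthesis genes Idi1 and Scd1, the AT2 genes Lyz1, Lyz2, Lamp3 and Ppp1r14c, and the endoplasmic reticulum genes Calr, Pdia4 and Serpinh1. In barcodes without a cell, 34 of the 40 and 22 of the 30 also passed 2-fold in the same direction. The higher count stands beside the 504 of 11100 genes given above, and no such background is given for the lower one. As above, genes chosen this way would largely share the direction in any case.

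Circadian clock genes showed the largest medians among the lists in epithelial and endothelial cells. Of 17 measured epithelial members 11 were at least 2-fold higher and 3 lower in the iPCKO library, of 15 endothelial members 10 and 1, and of 18 mesenchymal members 12 and 1. Of all measured genes 3.59, 2.72 and 8.28% were at least 2-fold higher and 2.91, 4.28 and 6.85% lower in these lineages. Those shares, with 4.92 and 8.12% in immune cells, also stand beside the counts of the lists that follow. The median log2 ratios were 1.46, 2.33 and 2.06, beside medians over all genes of 0.00, -0.07 and 0.18, and 4 clock genes were measured in immune cells. In the Bdnf pair the medians had the same sign but were smaller, at 0.18, 0.66 and 0.38.

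Output genes of the clock were higher. Dbp (ENSMUSG00000059824.13, chromosome 7 from 45354512 to 45359627 of GRCm39) had 4.31 and 130.1 CPM in epithelial, 4.51 and 62.4 CPM in endothelial and 4.66 and 121.2 CPM in mesenchymal cells, log2 ratios of 4.92 (4.69 to 5.15), 3.79 (3.43 to 4.17) and 4.70 (4.00 to 5.50). Its relatives Tef (2.18, 3.20 and 3.10) and Hlf (3.75 in endothelial and 2.73 in mesenchymal cells) moved the same way. Ciart, which carries 3 E-boxes in the stretch shown above, had 3.68 and 32.9 CPM in epithelial, 46.1 and 73.3 CPM in endothelial and 0.274 and 47.4 CPM in mesenchymal cells. The mesenchymal control value of Ciart is 1 UMI, so its ratio of 7.43 (4.93 to 12.75) is loosely bounded.

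The repressors of the feedback loop were higher as well. Nr1d1, the REV-ERB alpha gene that represses Arntl, had 36.4 and 242.9 CPM in epithelial, 10.2 and 225.2 CPM in endothelial and 122.3 and 639.2 CPM in mesenchymal cells, ratios of 2.74, 4.47 and 2.39. By class the Nr1d1 ratio was 5.26 in aCap, 5.12 in gCap, 3.25 in AT2, 4.29 in pericyte and 1.18 in myofibroblast cells, above 0 in all 12 classes compared. Per1 had 43.4 and 119.5 CPM in epithelial, 83.2 and 184.6 CPM in endothelial and 67.4 and 214.7 CPM in mesenchymal cells, and 38.8 and 39.0 CPM in immune cells. Per2 ratios were 1.94, 3.28 and 1.92, Per3 ratios 2.35, 2.7 and 2.86, and Cry2 ratios 1.32, 2.33 and 2.19.

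Arntl and Npas2, of the activators, were lower, and Clock was not. Arntl had 35.7 and 8.90 CPM in epithelial, 31.0 and 10.0 CPM in endothelial and 47.4 and 30.1 CPM in mesenchymal cells, ratios of -2.0 (-2.20 to -1.81), -1.63 (-1.89 to -1.39) and -0.66 (-1.07 to -0.25). Npas2 had 31.0 and 4.16 CPM in epithelial (-2.90) and 53.5 and 16.5 CPM in mesenchymal cells (-1.70), and Nfil3, which competes with DBP at D-boxes, 21.6 and 8.58 CPM in epithelial cells (-1.33). Clock, which lies inside the chromosome 5 stretch described last, had 51.4 and 50.4 CPM in epithelial (-0.03, -0.13 to 0.07), 65.7 and 86.0 CPM in endothelial (0.39, 0.27 to 0.51) and 74.8 and 93.2 CPM in mesenchymal cells (0.32, 0.05 to 0.58). In the Bdnf pair Arntl ratios were -0.80, -0.51 and -0.90 and Per3 ratios 1.11, 1.40 and 1.31. The hour at which each lung was collected is not given, and its part in these values was not tested.

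**Figure D3:**
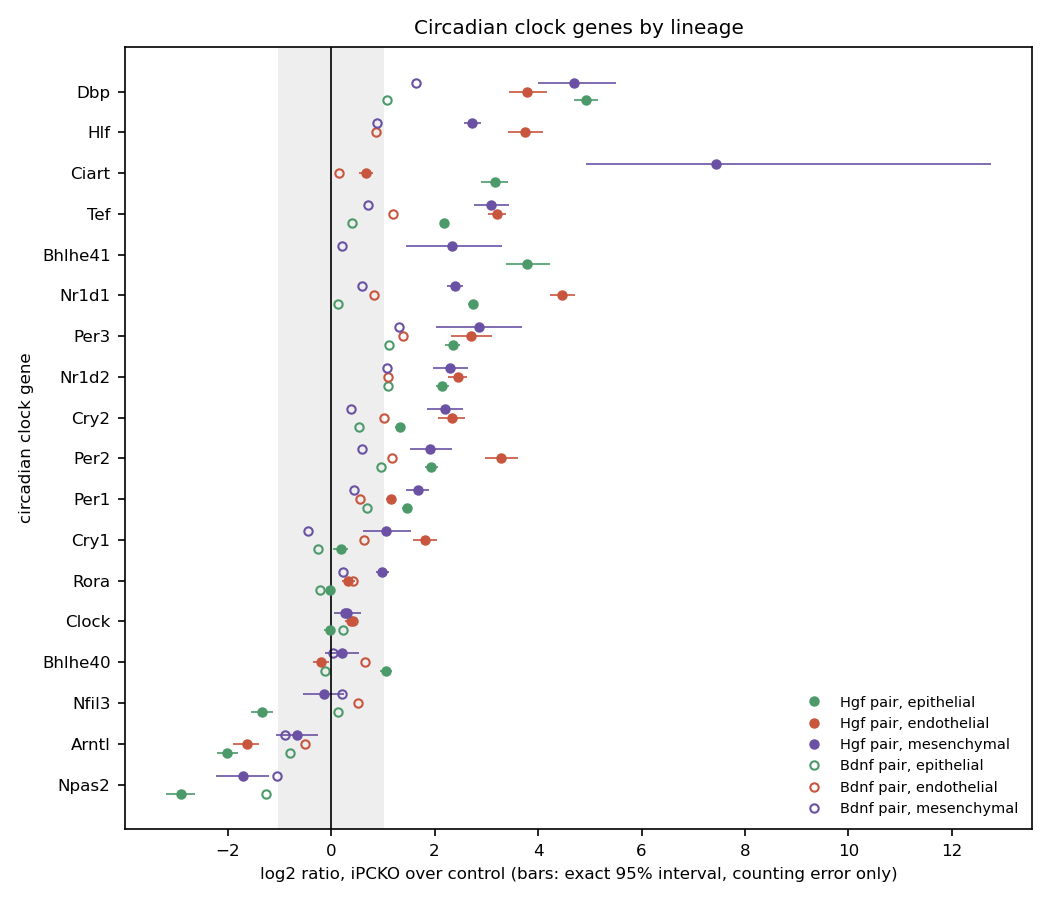
Log2 ratios of iPCKO over control (x axis) for circadian clock genes (y axis) in epithelial, endothelial and mesenchymal cells; filled points with lines are the Hgf pair with exact 95% intervals of counting error, open points the Bdnf pair, and grey shading marks less than 2-fold. Dbp, Tef, Nr1d1, Per2 and Per3 lie to the right of the shading in all 3 lineages of the Hgf pair, and Arntl lies at -2.0 in epithelium.

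Glucocorticoid response genes as a list were also higher, most in the mesenchyme. Counts of members at least 2-fold higher were 8 of 20 in epithelial, 11 of 20 in endothelial and 16 of 22 in mesenchymal cells, with none lower and medians of 0.72, 1.13 and 2.12. In immune cells 2 of 15 were higher and 6 lower, with a median of -0.08. Glul, the glutamine synthetase gene, had 490.7 and 2973 CPM in mesenchymal cells (2.60, 2.52 to 2.67), and Txnip, a regulator of glucose uptake, 388.4 and 1256 CPM in endothelial cells (1.69). Ddit4, an inhibitor of mTORC1, had 43.9 and 401 CPM in mesenchymal (3.19) and 252.9 and 97.5 CPM in immune cells (-1.38). Angptl4 and Pdk4, 2 genes of lipid and fuel use, had 30.2 and 238.6 CPM and 30.2 and 164.4 CPM in mesenchymal cells. The Bdnf pair had medians of 0.48, 0.39 and 0.10.

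Interferon-stimulated genes were lower, most clearly in the endothelium. There, 12 of 15 measured members were at least 2-fold lower and none higher, with a median of -1.72, beside 2 of 5 in epithelial (-0.97) and 4 of 9 in mesenchymal cells (-0.95). Ifi44 had 41.8 and 3.86 CPM in endothelial cells (-3.44, -3.81 to -3.09), Oasl2 106.6 and 19.0 CPM (-2.49) and Rtp4 70.9 and 17.1 CPM (-2.05). Of the genes whose promoters are shown, Isg15 had 31.7 and 6.72 CPM (-2.24, -2.53 to -1.95), Gbp2 89.7 and 27.2 CPM (-1.72) and Ifit1 36.2 and 12.4 CPM (-1.54). Ifit3, which also holds the element, had 26.4 and 42.9 CPM in epithelial cells (0.70, 0.58 to 0.83), the opposite direction. The endothelium of the Bdnf pair had a median of -1.09, with 9 of 14 members at least 2-fold lower.

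MHC and antigen processing genes were lower in each lineage, by medians of -0.84, -1.24, -0.68 and -0.70 in epithelial, endothelial, mesenchymal and immune cells. At least 2-fold lower were 6 of 14, 11 of 16, 4 of 11 and 3 of 15 measured members, and none was 2-fold higher. B2m, the common light chain of MHC class I, had 2260 and 740.8 CPM in endothelial (-1.61, -1.64 to -1.58) and 292.3 and 169.1 CPM in epithelial cells (-0.79). For H2-K1, a class I heavy chain gene of a family that may share reads, the endothelial ratio was -1.23 and the epithelial ratio -0.52. The class II gene H2-Ab1 had 396.2 and 55.1 CPM in epithelium (-2.85). The Bdnf pair had medians of -0.48, -0.73, -0.51 and -0.37.

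Genes of cholesterol and fatty acid synthesis were lower in the 3 large lineages, with medians of -0.83, -1.06 and -1.03 and of -0.31 in immune cells. At least 2-fold lower were 6 of 26 epithelial, 12 of 22 endothelial and 11 of 21 mesenchymal members. Dhcr7, the last enzyme of cholesterol synthesis, had 24.0 and 4.95 CPM in epithelial cells (-2.28), and Idi1 40.7 and 5.36 CPM in mesenchymal cells (-2.92). Fasn, the fatty acid synthase gene, had 470.5 and 240.9 CPM in epithelium (-0.97), whereas Srebf1, the regulator of lipid synthesis, had 147 and 153.5 CPM (0.06, 0.00 to 0.12). In AT2-rich epithelium the surfactant and lamellar body list had a median of -0.67, with 5 of 21 members at least 2-fold lower and 1 higher.

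Sftpc, which encodes surfactant protein C, had 47403.5 and 28709.1 CPM in epithelial cells (-0.72, -0.73 to -0.72), at an AT2 share of 76.5 and 60.4%, and within AT2 cells its ratio was -0.25. Sftpa1, a gene of surfactant protein A, had -0.57 in epithelial and -0.13 in AT2 cells. Lamp3, a lamellar body membrane gene, had 2417 and 794.6 CPM (-1.60), and Tinag 89.4 and 14.1 CPM (-2.67), both lower by more than Sftpc. Ctsh, a protease gene of surfactant processing, had 820 and 1095 CPM (0.42), the opposite direction. Outside epithelium the medians of the same list were -0.46 in endothelial and -1.11 in mesenchymal cells, where these transcripts lie at a few percent of the epithelial level as given above.

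Cytosolic ribosomal protein genes were higher by a small amount, least in the mesenchyme. The medians were 0.59, 0.55, 0.33 and 0.55 over 86, 86, 87 and 84 measured members, of which 85, 83, 79 and 83 were above 0, beside medians over all measured genes of 0.00, -0.07, 0.18 and -0.03. In the Bdnf pair the list had medians of 0.15, 0.06, 0.16 and 0.15. At most 4 members passed 2-fold in any lineage, and reads of these genes may be shared with pseudogenes. Nuclear genes of oxidative phosphorylation had medians of 0.03, -0.03, -0.03 and 0.50 and the proteasome list 0.12, -0.07, 0.15 and 0.54, so the immune value was the highest of the 4 in both. Transcripts of the mitochondrial genome had medians of 0.04, 0.06, -0.26 and 0.08.

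**Figure D4:**
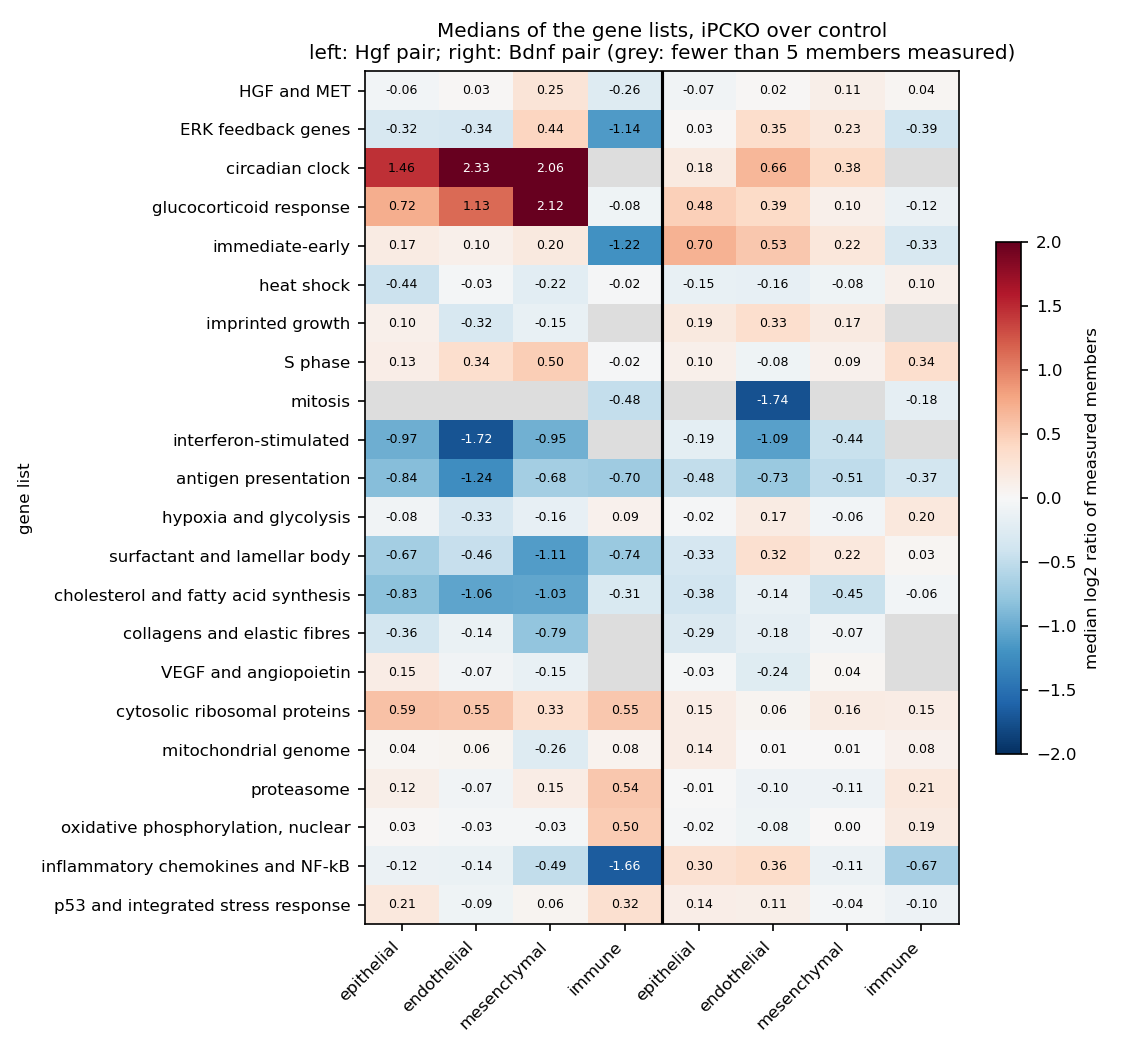
Median log2 ratio of iPCKO over control over the measured members of 22 gene lists (rows) in 4 lineages of the Hgf pair (left of the thick line) and the Bdnf pair (right); grey cells had fewer than 5 measured members. The clock list has 1.46, 2.33 and 2.06 and the interferon-stimulated list -0.97, -1.72 and -0.95 in epithelial, endothelial and mesenchymal cells of the Hgf pair.

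Genes past 2-fold in 1 lineage and within 0.5 on the log2 scale in the other 3 were few in epithelium and endothelium. In epithelium 1 gene was higher (0.0213%) and 4 were lower (0.0852%). Gstm1, a glutathione transferase gene whose family may share reads, had 524.8 and 1190 CPM there (1.18, 1.16 to 1.21), with ratios of -0.07, -0.01 and 0.29 in endothelial, mesenchymal and immune cells. Acly, which makes the acetyl-CoA for lipid synthesis, had 317.2 and 141.9 CPM (-1.16), and the other lower genes were Man1a, Scp2 and Xpo1. In endothelium 2 genes were higher (0.0426%) and 5 lower (0.107%). Qsox1, a sulfhydryl oxidase gene, had 189.2 and 802.3 CPM (2.08, 2.03 to 2.14) against ratios of 0.29, 0.08 and 0.03 elsewhere, and Plcb1, a phospholipase C gene, 219.4 and 84.0 CPM (-1.39), with -0.90 in the endothelium of the Bdnf pair. The remaining 5 endothelial genes were Svil, Oaz2, Mgat5, Slc48a1 and Chtf8.

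Mesenchymal cells had 53 genes of this kind higher (1.13%) and 14 lower (0.298%). Garre1, a RAC1 regulator gene, had 64.2 and 441 CPM (2.78, 2.58 to 2.99), and Ehd4, a gene of endocytic recycling, 89.9 and 334.3 CPM (1.89), beside ratios of -0.19 and 0.09 in endothelium, where both were more abundant than in control mesenchyme. Gyg, the primer protein of glycogen, had 274.1 and 89.0 CPM (-1.62) and Crip1 375 and 138.9 CPM (-1.43). In immune cells 75 genes were higher (1.6%) and 92 lower (1.96%). The lysosomal protease gene Ctsd had 204 and 45.5 CPM (-2.17) and the tetraspanin gene Cd9 449.9 and 108.6 CPM (-2.05). Between the controls, Hgf over Bdnf, 87 and 72 of 3845 genes were immune-only, and the count of mesenchymal-only genes was 0 and 1.

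A larger number of genes was measured in 1 lineage alone. Of 786 such epithelial genes 96 (12.2%) were at least 2-fold higher and 67 (8.52%) lower, and of 569 endothelial genes 37 (6.5%) and 93 (16.3%). Of 699 mesenchymal genes the counts were 114 (16.3%) and 165 (23.6%), and of 448 immune genes 59 (13.2%) and 95 (21.2%). Between the 2 controls, Hgf over Bdnf, the shares were 6.1 and 3.84% in epithelial and 7.85 and 5.02% in endothelial cells. They were 7.51 and 8.24% in mesenchymal and 18.3 and 12.6% in immune cells. Among genes of the extracellular matrix, counted whether or not other lineages expressed them, the list of collagens and elastic fibres had a mesenchymal median of -0.79, with 13 of 32 members at least 2-fold lower and 3 higher. Col3a1, the fibrillar collagen III gene, had 16150.0 and 4180 CPM in mesenchyme (-1.95), and within classes -1.08 in adventitial fibroblasts, -1.61 in matrix fibroblasts, -1.48 in myofibroblasts and -0.96 in pericytes, so it was lower in each. Col15a1, a basement membrane collagen gene, had 574.6 and 35.0 CPM in mesenchyme (-4.04, -4.37 to -3.72) and 49.1 and 3.49 CPM in endothelium (-3.81, -4.20 to -3.45), and 100 and 5.63 CPM in gCap cells. Fbln1 and Loxl1 had ratios of -2.24 and -1.75, whereas Lox, the collagen cross-linking enzyme gene, had 1.02 and Ltbp2 1.68.

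In immune cells, chemokine and NF-kB genes and immediate-early genes were lower. The lists had medians of -1.66 and -1.22, with 11 of 14 and 16 of 23 members at least 2-fold lower and none higher. Of all measured immune genes 8.12% were at least 2-fold lower. The medians of the same lists in the other lineages lay between -0.49 and 0.20. Immune cells of the Bdnf pair had medians of -0.67 and -0.33, with 4 of 13 and 2 of 21 members at least 2-fold lower and 0 and 1 higher. Ccl3 had 3582 and 840.3 CPM, Ccl4 3469 and 553.4 CPM and Il6 1244 and 279.5 CPM. The basophil protease genes Mcpt8 (857.9 and 130.9 CPM) and Prss34 (2442 and 247.9 CPM) were lower and the immunoglobulin light chain gene Igkc (1860 and 9469 CPM) was higher, values picked after they were seen. With 99 cells in each library, other kinds of immune cells and other levels within them cannot be told apart.

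The list of VEGF and angiopoietin genes did not move as a group, but single members did. Apln, the ligand gene of aCap cells and a marker used to name that class, had 245.1 and 22.3 CPM in endothelial cells (-3.46, -3.61 to -3.31). Esm1, a VEGF-induced endothelial gene, had 42.6 and 131.3 CPM (1.62), and Pgf, a VEGF receptor ligand gene, 20.8 and 77.9 CPM in mesenchyme (1.90). Kdr, the VEGF receptor 2 gene, which lies inside the chromosome 5 stretch described next, had 1536 and 1417 CPM in endothelium (-0.12), and 28.7 and 95.9 CPM in epithelium and 28.0 and 102.6 CPM in mesenchyme, with like epithelial and mesenchymal ratios in the Bdnf pair (1.42 and 1.63). Medians of the list were 0.15, -0.07 and -0.15.

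One stretch of chromosome 5 was higher as a whole. It runs over 13.5 Mb at chr5:63986690-77458296 of GRCm39, from Rell1 to Noa1, and was chosen after its values were seen. Its limits were set where running medians of 15 neighbouring genes stayed at 0.4 or more in both the Bdnf lung pair and the Nodal cortex pair. The ratios of those pairs inside it are a description of that choice, whereas the Hgf pair did not set the limits. Genes inside it had a median log2 ratio of 0.49 in epithelial (47 of 51 above 0), 0.49 in endothelial (44 of 50), 0.79 in mesenchymal (46 of 52) and 0.39 in immune cells (26 of 37), beside 0.06, -0.03, 0.22 and 0.00 on the rest of chromosome 5. The median over the 3 large lineages was 0.54, which is 1.46-fold. Between the 2 controls the values were -0.16, -0.08, -0.15 and 0.05, beside -0.14, -0.02, -0.10 and 0.06 on the rest of the chromosome. Of the 37 genes at least 1.5-fold higher in every lineage, 6 (16.2%) lay inside, Klhl5, Rpl9, Lias, Ppat, Paics and Srp72. Of all 4693 genes measured in the 4 lineages, 30 (0.639%) lay inside, and of the 29 lower genes 0.

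All 3 pairs of the series showed the same stretch, and in each the iPCKO mice carry the transgene, which is not named for the controls. The highest running median in the Hgf pair was 0.77 inside and 0.45 elsewhere, at Per3 on chromosome 4. Hgf itself lies on chromosome 5 outside this stretch. The stretch contains the markers Pdgfra, Kit and Hopx of the gates. The number of copies was not measured here, and the cause was not tested.

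**Figure D5:**
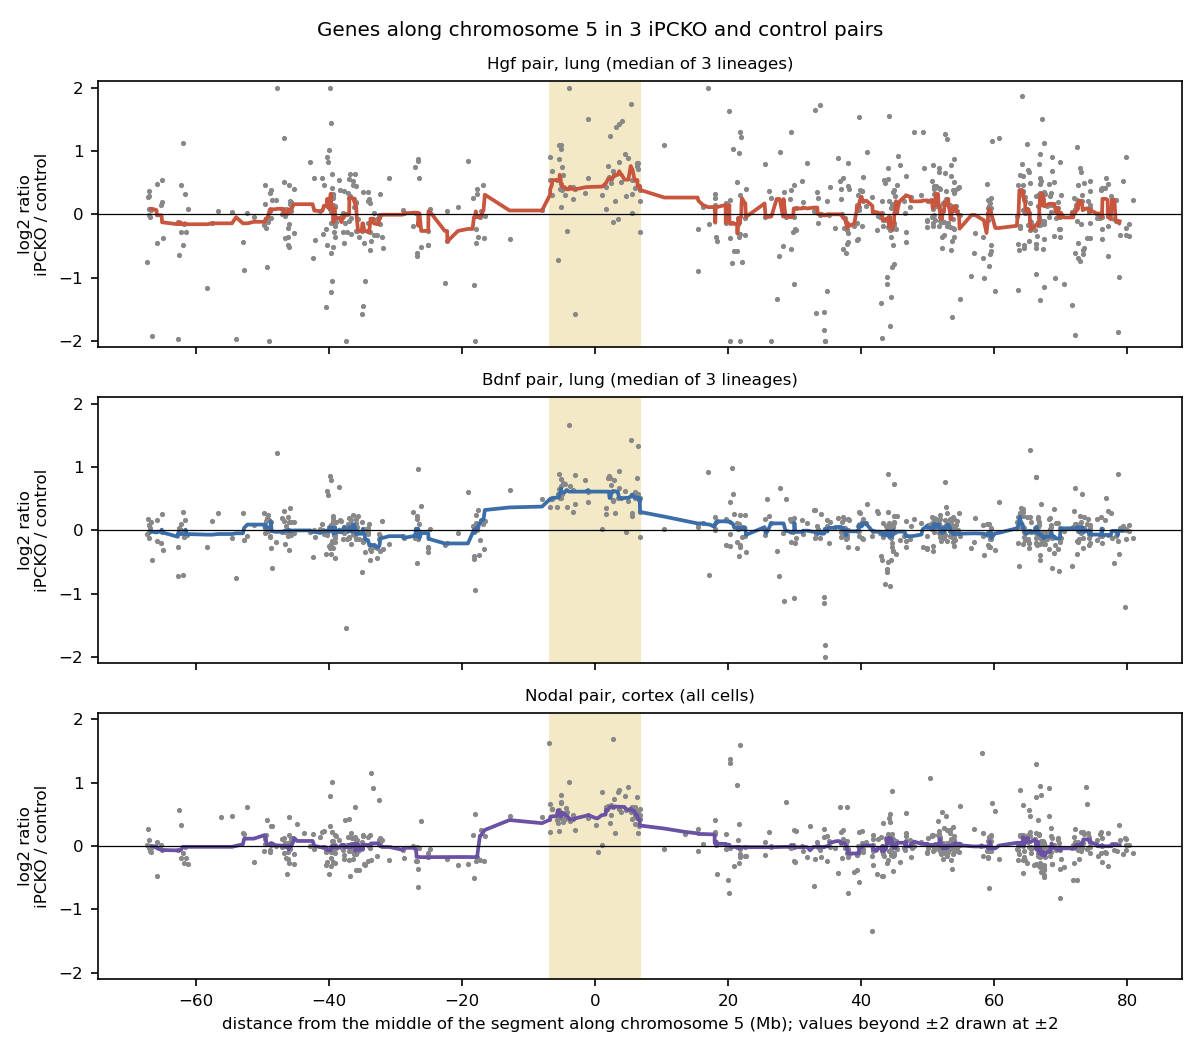
Log2 ratio of iPCKO over control (y axis) of single genes (grey points) and the running median of 15 neighbouring genes (line) along chromosome 5 (x axis, distance in Mb from the middle of the stretch) in the Hgf, Bdnf and Nodal pairs; shading marks the stretch. The medians of the genes inside it are 0.54, 0.57 and 0.54.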

How the data were processed

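The authors deposited estimated counts of UMIs per gene and barcode, made with STARsolo of STAR 2.7.10a per the submitters' processing notes on GRCm39 (mm39), with reads of several genes divided by expectation maximisation, so that 9.19 and 9.95% of the entries of the Hgf control and iPCKO matrices were not whole. The GENCODE release is named differently in different places of the study's methods and is not given here. Matrices held all barcodes. Of 56884 features, 56323 matched the annotation used for names and positions.

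Barcodes with at least 700 UMIs and a mitochondrial share of at most 25% were kept. A cell joined a lineage when it held at least 3 marker UMIs from at least 2 of the 17 epithelial, 17 endothelial, 22 mesenchymal or 17 immune markers, and 70% or more of its marker UMIs were of that lineage. Classes within a lineage were named from separate marker lists by the same kind of rule. The remainder was mixed or passed no gate and stayed out of the sums. Doublets were removed only through the gate, and Scrublet (scanpy 1.11.5), run as an alternative, called 2.64 and 2.97% of cells, among them 33.1 and 26.6% of mixed cells.

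UMIs were summed per library and lineage and scaled to CPM. Ratios are iPCKO over control with conditional exact 95% intervals of the rounded sums, and shares have Clopper-Pearson intervals. With 1 library per group, no test was run. A gene was measured when the UMIs of both libraries came to 50 or more and their levels averaged at least 10 CPM. Gate markers and mitochondrial genes were left out of the counts of genes. Lists needed 5 measured members for a median. Named genes were Hgf, Met, the 15 genes per direction with the largest smallest ratio over the 4 lineages, up to 6 per direction for 1 lineage only, without predicted models and duplicated symbols, and 4 per list. Some genes that met this rule are not reported here. List members named beyond these 4, and class values, were chosen after their values were seen. The members and lists were chosen with earlier results of these data known.

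The procedure was tested on simulated data of the Hgf pair, drawn around the control levels with counting error alone. Shifts in makeup, free RNA, errors of the gate and spread between mice were not simulated. With 3-fold changes, 0 epithelial, 0 endothelial, 9 mesenchymal and 17 immune genes that were left unchanged passed 2-fold. Of these unchanged genes, 12 counted as immune only. Of genes changed 3-fold, 97, 98, 96.5 and 85% were recovered past 2-fold in epithelial, endothelial, mesenchymal and immune cells and 82.5% in every lineage, whereas of genes changed 2-fold, the threshold itself, 44, 49, 50.5 and 46.5% passed it by lineage and 7.5% in every lineage. Other cell filters, gates, scalings, gene minimums and folds were tried. Python 3.11.15, numpy 2.4.6, scipy 1.17.1, pandas 2.3.3 and matplotlib 3.10.9 were used.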

Additional observations from a re-analysis of the deposited data

Results flagged for a closer look

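The chromosome 5 stretch was also higher in libraries that the comparison of Hgf lungs does not use. In the Bdnf lung pair, genes inside it had a median log2 ratio of iPCKO over control of 0.57, with 57 of 58 genes above 0, beside -0.02 on other chromosomes, but this pair was used to choose the stretch, so these values are a description and no further support. In the Nodal cortex pair the median was 0.54, with 59 of 60 genes above 0, beside -0.02 on other chromosomes. The Nodal pair was also used to choose the stretch, so its values too are a description and no further support. Both values are set apart because they lie in samples outside the comparison and above their control libraries. Each pair is 1 library per group, and the cause was not tested.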

How the results depend on the processing

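No paired analysis was possible because each group has 1 library, and no replicate could be left out. With at least 2000 UMIs per cell, the log2 ratios of the epithelial, endothelial and mesenchymal shares were -0.25, 0.35 and -0.54, against -0.40, 0.29 and 0.25, so the mesenchymal one reversed. The epithelial ratio was -0.52 at a mitochondrial limit of 15%, -0.48 at a gate purity of 90% and -0.49 with the gate on cells thinned to 700 UMIs, where the immune ratio was -0.69 (against -0.17, with 0.12 at 2000 UMIs and 0.23 at 90% purity, both of the other sign), and the mesenchymal ratio was 0.10 at that purity. The 7 higher and 7 lower genes of every lineage became 3 and 3 at that purity, 3 and 1 with at least 200 UMIs per gene, 26 and 17 with at least 10 UMIs and no CPM minimum, 37 and 29 at 1.5-fold, and 40 and 30 without the immune lineage, which was added after the data were seen. With the thinned gate 2 were higher. Genes of 1 lineage only were 5 epithelial, 7 endothelial, 67 mesenchymal and 167 immune. In the same order they were 2, 0, 15 and 26 with 200 UMIs, 22, 26, 209 and 505 with 10 UMIs, and 91, 70, 489 and 656 at 1.5-fold, and 40, 31 and 262 without the immune lineage. Epithelial and endothelial counts were 8 and 3 at 90% purity, 9 and 11 with median-of-ratios scaling and 8 and 11 with the mean of CPM over cells, and immune counts 85 at 90% purity, 87 with the thinned gate and 289 with the mean over cells. Genes past 2-fold, 580, 656, 1429 and 732, were 3737, 3543, 3225 and 2324 with 10 UMIs, 687 mesenchymal and 170 immune with 200 UMIs, and 405 and 376 immune at 90% purity and with the thinned gate. With classes weighted as in the control, added after the data were seen, the mesenchymal ratios of Cox4i2 (-0.47 against 1.27) and Il6 (0.26 against -1.47) reversed. Of 2230 ratios of single genes under the 10 settings that can alter one, 1936 stayed within their counting interval, 292 moved out of it and 2 reversed. Depth limits the immune lineage most, with 99 cells in each library. Apart from the altered filters or classes themselves, the cause was not tested.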

Other observations

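Of 7385 genes measured in the 3 large lineages, 17 (0.230%) were at least 2-fold higher in 1 of them and lower in another. Lpl, the lipoprotein lipase gene, had 197.1 and 1708 CPM in endothelial cells of control and Hgf iPCKO lungs (log2 ratio 3.12, 3.06 to 3.17) and 315.8 and 115 CPM in mesenchymal cells (-1.46, -1.65 to -1.27). Within classes the Lpl ratio was 3.14 in gCap, 3.28 in AT1 and 0.03 in AT2 cells, and in the mesenchyme -1.10 in adventitial fibroblasts, -2.22 in myofibroblasts and 0.79 (0.08 to 1.49) in matrix fibroblasts. Barcodes without a cell had an Lpl ratio of 2.97. Sox4, a transcription factor gene, had 154.1 and 69.7 CPM in epithelial (-1.15) and 109.9 and 639.7 CPM in mesenchymal cells (2.54), where its ratio was 2.88 in myofibroblasts and -1.91 in pericytes. Emp1, a membrane protein gene, had ratios of 1.06 in epithelial, -1.24 in endothelial, -1.68 in mesenchymal and -3.33 in immune cells, and within epithelium 1.88 in AT1, -0.18 in AT2 and -0.05 in club cells. AW112010 had an epithelial ratio of 1.47, but -1.65 in AT2 and -2.39 in club cells, so sums over a lineage and values within its classes can differ in direction. Col12a1, a fibril-associated collagen gene, had -1.22, -1.67 and 1.26 in epithelial, endothelial and mesenchymal cells, and 0.92 in adventitial fibroblasts and -0.21 in myofibroblasts.

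Some imprinted genes differed by large ratios. Dlk1, which encodes a non-canonical Notch ligand, had 21 UMIs in control and 1210 UMIs in iPCKO epithelial cells, 0.555 and 43.1 CPM (6.28, 5.66 to 6.98). It was also higher in mesenchymal cells, with 5.76 and 15.2 CPM (1.41, 0.60 to 2.25), and in barcodes without a cell (5.08). Nnat had 312.9 and 46.4 CPM in epithelium (-2.75), and Mest 86.8 and 20.7 CPM in endothelium (-2.07). H19 had 66.1 and 10.3 CPM in mesenchyme (-2.68), with 3.20 in the Bdnf pair. Over 12 measured epithelial members of the list the median was 0.10. Scgb1a1, the club cell secretory protein gene, was higher in epithelial (5914 and 16444 CPM, 1.48), endothelial (1.57) and mesenchymal cells (1.72) and in barcodes without a cell (14571 and 32858 CPM, 1.17), and its epithelial ratio in the Bdnf pair was 1.41. Within club cells the Scgb1a1 ratio was 0.23 and within AT2 cells 1.29. The haemoglobin gene Hba-a1, whose copies may share reads, had 1.92 and 108.9 CPM in mesenchymal (7 and 264 UMIs, 5.83, 4.76 to 7.15), 4.95 and 49.1 CPM in epithelial (3.31) and 125.6 and 179.8 CPM in endothelial cells (0.52), but 59.3 and 12.1 CPM in immune cells (-2.29, -3.32 to -1.35). These genes were picked after their values were seen.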
